A study of Homo sapiens with 9 samples.

Results

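The 32 genes described here are very long protein-coding genes, most of them with roles at synapses or in cell adhesion. They were taken as a named list, and the 1967 regions of chromatin accessibility whose centre lay inside 1 of these genes and more than 1 kb from either of its ends were taken as their intronic regions, of 148797 regions measured in all. A further 27 regions lay within 1 kb of an end of a member and were kept apart as gene-end regions. The gene table holds whole gene spans (RefSeq, GRCh38.p14), so exons inside a gene were not separated from introns. Of the intronic regions, 1472 (74.8%) had enough counts to be tested, against 79.3% of the 61119 intronic regions of other protein-coding genes. All 27 gene-end regions were tested.

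The assay was ATAC-seq: the transposase Tn5 cuts open chromatin and leaves adapters there, so that open stretches collect more reads. The cells were SK-N-BE(2)c, an established human neuroblastoma cell line. ASO2 and ASO10 are antisense oligonucleotides, short synthetic strands that bind an RNA by base pairing, and both target NESPR, a long non-coding RNA. NCA is the negative control oligonucleotide. The 3 groups were cells of this single line transfected with ASO2, ASO10 or NCA at 100 nM with a lipofectamine reagent and collected 48 h later, with 3 libraries per group, so that the controls too had been transfected with an oligonucleotide. Nothing in the labels says whether the 3 libraries of a group came from separate cultures, and p-values therefore measure the spread between these libraries, which may be technical.

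Neurons express many of the longest genes of the genome. Their products include adhesion molecules and scaffolds that hold synapses together, and transcription through such a gene takes a polymerase many hours. Their introns carry scattered enhancers, and several of these genes, among them FHIT, WWOX, MACROD2 and IMMP2L, coincide with common fragile sites, stretches that break under replication stress. Neuroblastoma arises from the sympathoadrenal lineage of the neural crest, whose cells are themselves neuronal precursors.

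Starts of 4 of these genes are shown because the values of regions over starts are given beside those of regions inside the genes. The letters are the 250 bases before a RefSeq start, read 5′ to 3′ on the strand of the gene, with each CpG (the letters CG, a palindrome found alike on both strands) in capitals. The ERBB4 start and the CpG-rich AUTS2 start each had a region over them. The CpG-poor GPC6 start, which lies inside the gene span, had a region as well, while the CpG-rich inner start of OPCML had none. The windows were chr2:212538803-212539052 on the minus strand for ERBB4, chr7:69598225-69598474 on the plus strand for AUTS2, chr13:93226557-93226806 on the plus strand for GPC6 and chr11:132943837-132944086 on the minus strand for OPCML.
ERBB4: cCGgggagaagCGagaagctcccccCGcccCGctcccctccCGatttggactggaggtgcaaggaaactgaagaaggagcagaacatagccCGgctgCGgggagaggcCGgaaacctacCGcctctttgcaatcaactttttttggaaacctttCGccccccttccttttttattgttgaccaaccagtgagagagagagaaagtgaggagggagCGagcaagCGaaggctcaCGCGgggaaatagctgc
AUTS2: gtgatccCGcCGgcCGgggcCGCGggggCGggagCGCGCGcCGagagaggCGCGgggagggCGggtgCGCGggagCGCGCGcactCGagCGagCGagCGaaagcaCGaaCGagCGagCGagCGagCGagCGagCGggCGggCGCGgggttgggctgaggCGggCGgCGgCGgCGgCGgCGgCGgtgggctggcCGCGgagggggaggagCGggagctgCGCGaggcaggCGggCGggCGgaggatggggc
GPC6: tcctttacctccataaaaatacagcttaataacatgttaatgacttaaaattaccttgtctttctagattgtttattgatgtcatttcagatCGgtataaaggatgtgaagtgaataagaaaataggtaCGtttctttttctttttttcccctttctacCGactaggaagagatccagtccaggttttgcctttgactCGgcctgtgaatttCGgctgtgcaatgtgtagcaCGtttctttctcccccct
OPCML: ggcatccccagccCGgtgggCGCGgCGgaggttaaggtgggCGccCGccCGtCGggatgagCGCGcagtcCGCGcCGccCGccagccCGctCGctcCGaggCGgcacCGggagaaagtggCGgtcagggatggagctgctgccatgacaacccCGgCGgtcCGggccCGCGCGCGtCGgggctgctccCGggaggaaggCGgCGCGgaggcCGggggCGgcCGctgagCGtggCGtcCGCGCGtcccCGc
These hold 14, 49, 6 and 41 CpG in the order given.

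Start windows of 300 bases, from 250 before to 50 after each RefSeq start, were at hand for 27 of the 32 members, 69 windows in all. LRP1B, CADM2, NEGR1, CSMD1 and CDH13 had no window. A region overlapped 35 of these windows, in 24 members, and no region overlapped the other 34. In OPCML, RBFOX1 and CTNNA3 no region overlapped a window of this table, which does not hold the outermost start of RBFOX1 or CTNNA3. The gene-end region chr16:5239472-5240481 lay over the 5′ end of the RBFOX1 span, and chr10:67763614-67765432 began just upstream of that of CTNNA3. The median number of CpG was 24 in windows with a region and 6 in windows without, against 14 over all 35116 windows of the table. Of the member windows with 20 or more CpG, 21 of 29 had a region, and of those with fewer, 14 of 40. Windows with 20 or more CpG made up 42.0% of the member windows and 41.2% of all windows, so the starts of these genes were about as CpG-rich as starts in general.

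The members span 643 kb (LSAMP) to 2474 kb (RBFOX1) and together 46.7 Mb. They held between 5 intronic regions (WWOX) and 199 (MACROD2), with a median of 48.5 per gene. Regions were sparsest in WWOX, at 4.49 per Mb, and densest in AUTS2, at 110 per Mb. Member regions resembled other intronic regions in size, with a median width of 360 bases against 346, and were slightly weaker, with a median of 1.61 against 1.83 CPM in NCA (CPM are a region's counts scaled to a common library size). The members' gene sums rested on 26 to 7973 counts per library.

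Total counts ranged from 7293565 to 10948569 per library. The biological coefficient of variation within groups was 23.5% for single regions and 12.3% for gene sums. Markers were read as regions centred within 1 kb of a gene end, so regions over a start but centred further off were not counted. Of the marker genes for the labelled cell type, 7 of 9 sympathoadrenal genes carried such a region, at 5.04 to 36.0 CPM in NCA. By this rule TH and MYCN had none. Of 7 markers of blood, epithelial, mesenchymal, endothelial and liver cells, 5 had no such region, and the other 2 were at 1.201 CPM (KRT8) and 2.63 CPM (PECAM1). The NESPR RNA itself was not analysed here. Both comparisons with control used the same 3 NCA libraries and are therefore not independent of each other.

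The question of the comparison of ASO2 with NCA was which of these genes changed in accessibility when the oligonucleotide against NESPR replaced the control. Under ASO2, the summed intronic counts rose in 18 of the 32 genes and fell in 3, by the quasi-likelihood test of edgeR, adjusted by Benjamini-Hochberg over 11002 genes (adjusted p under 0.05). Over all genes tested, 7.57% were called higher and 2.13% lower. The largest rises were in ERBB4 (log2 fold change 0.70), the synaptic adhesion gene CADM2 (0.68) and NEGR1 (0.62), and the falls were in PTPRD, OPCML and NTM. The median log2 fold change of the 32 sums was 0.216, against -0.0194 over all genes. With loess offsets, which remove each library's trend with abundance, the 21 calls became 20, of which 11 were higher and 9 lower. The balance of directions thus depended on the scaling. The rises not called with loess offsets were those of CNTNAP2 (0.099), KCNIP4 (0.102), GPC6 (0.113), CTNNA2 (0.074), DLG2 (-0.0138), AUTS2 (-0.0421) and GPC5 (0.0551), with edgeR adjusted p-values of 0.11, 0.228, 0.0902, 0.453, 0.895, 0.576 and 0.576. The falls added by loess offsets were in ASTN2 (-0.19), CSMD1 (-0.28), DAB1 (-0.31), DPP6 (-0.14), NRXN3 (-0.23) and RBFOX1 (-0.25).

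**Figure D1:**
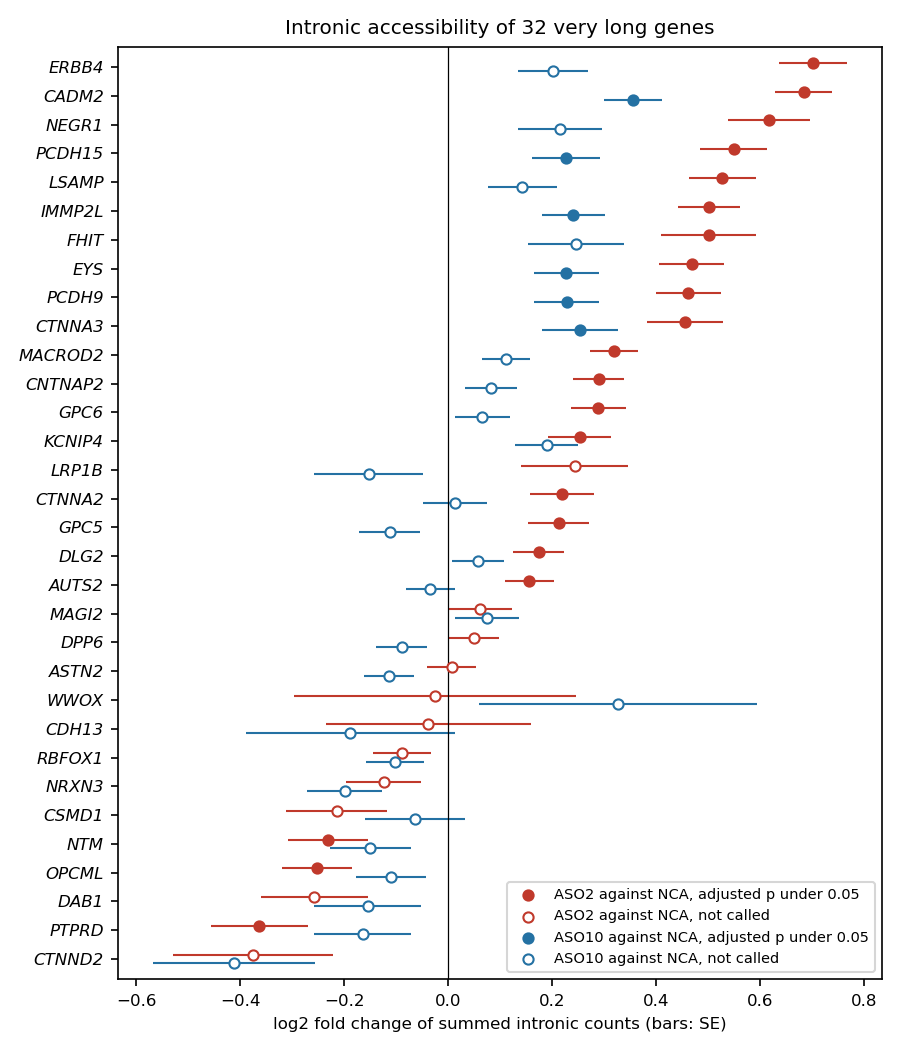
Log2 fold change of the summed intronic counts of each of the 32 genes (x axis) for ASO2 against NCA in red and ASO10 against NCA in blue. Points are the edgeR estimates from 3 libraries per group, bars are standard errors, and filled points passed an adjusted p of 0.05. The ASO2 values run from -0.37 (CTNND2) to 0.70 (ERBB4) with 18 filled points above 0 and 3 below, and the ASO10 values have 6 filled points, all above 0.

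The groups separated in most of the genes called. All 3 ASO2 libraries lay above all 3 NCA libraries in 18 members and below in 3, where 14.0% and 9.63% of all genes tested showed this. Of the genes called, GPC5 and NTM were the ones in which the groups overlapped. LRP1B and NRXN3 had separate groups without passing the test. Summed over all members, intronic accessibility was 6294, 6139 and 6479 CPM in the NCA libraries, 7293, 7597 and 7239 CPM in the ASO2 libraries and 6659, 6341 and 6509 CPM in the ASO10 libraries. The lowest ASO2 library thus lay above all others, while the ASO10 and NCA libraries overlapped. As a share of all intronic counts the members took 1.86% to 2.02% in NCA, 2.11% to 2.15% in ASO2 and 1.96% to 2.11% in ASO10.

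Among the 7 neurexin-family and immunoglobulin adhesion genes, 4 rose under ASO2 and 2 fell. CADM2, a synaptic cell adhesion molecule, had 240.1, 222.9 and 235.3 CPM in the NCA libraries and 360.3, 407.8 and 353.8 CPM in the ASO2 libraries. The ASO2 libraries were all above the NCA libraries, a log2 fold change of 0.68 ± 0.055 (SE, n = 3 per group; edgeR adjusted p = 8.08e-22). NEGR1, a membrane-anchored protein of the IgLON family that promotes neurite growth, had 67.2, 64.6 and 71.0 CPM in NCA and 102.0, 104.8 and 104.5 CPM under ASO2. This was a rise of 0.62 ± 0.079 (edgeR adjusted p = 1.28e-10) with no overlap. LSAMP, another IgLON, rose by 0.53 ± 0.065 (edgeR adjusted p = 2.37e-11), and CNTNAP2, which helps to cluster potassium channels along axons, by 0.29 ± 0.050 (edgeR adjusted p = 1.86e-06), though not with loess offsets (0.099). The remaining IgLON genes moved the other way. OPCML had 142.8, 152.4 and 142.4 CPM in NCA and 116.5, 118.8 and 131.3 CPM under ASO2, and fell by 0.25 ± 0.067 on the log2 scale (edgeR adjusted p = 0.00444). NTM, its neighbour on chromosome 11, had 98.1, 100.3 and 101.7 CPM in NCA and 80.7, 75.9 and 98.3 CPM under ASO2 (log2 fold change -0.23 ± 0.077, edgeR adjusted p = 0.0361). NRXN3, a presynaptic neurexin, had a log2 fold change of -0.12 and was not called (edgeR adjusted p = 0.333). Of the 4 IgLON genes of the list, 2 were thus called higher and 2 lower. The lower calls were the less stable: NTM, whose groups overlapped, lost its call with DESeq2 and in 5 of the 9 fits that left out 1 library, and OPCML lost it without ASO2 replicate 1.

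Of the 6 cadherin and catenin genes, 4 rose and none fell (0 lower by edgeR, with CTNND2 at an unadjusted p of 0.0158). PCDH15, a protocadherin of the tip links of inner ear hair cells, had 130.5, 119.4 and 142.8 CPM in NCA and 187.4, 205.8 and 182.1 CPM under ASO2, without overlap (log2 fold change 0.55 ± 0.065, edgeR adjusted p = 3.31e-12). PCDH9, a protocadherin of the nervous system, rose by 0.46 ± 0.062 (edgeR adjusted p = 1.01e-09). CTNNA3, the alpha-T-catenin of heart muscle, rose by 0.46 ± 0.073 (edgeR adjusted p = 3.42e-07), and CTNNA2, its neuronal relative, by 0.22 ± 0.061 (edgeR adjusted p = 0.00766). CTNND2, the neuronal delta-catenin, had a log2 fold change of -0.37 ± 0.15 and was not called (edgeR adjusted p = 0.114). CDH13, a cadherin without a membrane-spanning part, held 10 regions, together at 10.2 to 13.6 CPM in NCA. It was not called, with a value of -0.04 and an SE of 0.20, which is wider than the 0.062 of PCDH9.

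Receptor and signalling genes went in both directions. ERBB4, a receptor for neuregulins, had 111.5, 115.9 and 130.9 CPM in NCA, 190.7, 205.8 and 187.0 CPM under ASO2 and 147.5, 127.0 and 138.2 CPM under ASO10. The lowest ASO2 library was far above the highest NCA library, a log2 fold change of 0.70 ± 0.066 (edgeR adjusted p = 2.08e-17). PTPRD, a receptor tyrosine phosphatase of synapse formation, had 62.8, 60.7 and 62.1 CPM in NCA and 48.6, 40.3 and 55.2 CPM under ASO2. Its groups did not overlap, and it fell by 0.36 ± 0.094 on the log2 scale (edgeR adjusted p = 0.00338). LRP1B, of the low-density lipoprotein receptor family, had a value of 0.24 ± 0.10 (edgeR adjusted p = 0.126). DAB1, the adaptor of reelin signalling, had a value of -0.26 ± 0.10 (edgeR adjusted p = 0.100), and neither was called.

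Among the 4 scaffold and channel-subunit genes, 2 rose. KCNIP4, a calcium sensor that binds A-type potassium channels, rose by 0.25 ± 0.060 (edgeR adjusted p = 0.00109), a call lost with loess offsets (0.102). DLG2, a scaffold of the postsynaptic density, had 432.9, 402.4 and 421.6 CPM in NCA and 473.8, 472.2 and 472.2 CPM under ASO2. The difference was small beside those of ERBB4 and CADM2, but its groups did not overlap (log2 fold change 0.17 ± 0.049, edgeR adjusted p = 0.00939). MAGI2, another synaptic scaffold, and DPP6, an auxiliary subunit of the same channels, were at 0.06 and 0.05 and were not called. Both glypicans of the list, cell-surface heparan sulphate proteoglycans that lie side by side on chromosome 13, rose: GPC6 by 0.29 ± 0.053 and GPC5 by 0.21 ± 0.059. Neither was called with loess offsets (0.113 and 0.0551).

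Of the fragile-site genes, IMMP2L, a protease of the inner mitochondrial membrane, had 163.9, 167.9 and 163.7 CPM in NCA and 235.9, 237.4 and 228.3 CPM under ASO2 (log2 fold change 0.50 ± 0.060, edgeR adjusted p = 5.88e-12). FHIT, a nucleotide hydrolase, had 49.2, 48.2 and 44.6 CPM in NCA and 69.7, 69.7 and 61.8 CPM under ASO2 (0.50 ± 0.091, edgeR adjusted p = 9.01e-06). MACROD2, an ADP-ribose hydrolase, rose by 0.32 ± 0.046 (edgeR adjusted p = 9.7e-09). In all 3 genes the groups did not overlap. WWOX, an oxidoreductase, held only 5 regions at 3.27 to 7.64 CPM in NCA and had a value of -0.02 ± 0.27 (SE), which leaves a change as large as that of FHIT undetectable. Of the remaining 5 genes, EYS, a secreted protein of photoreceptors, rose by 0.47 ± 0.063 (edgeR adjusted p = 6.74e-10). AUTS2, a nuclear regulator of neuronal gene expression, rose by 0.16 ± 0.047 (edgeR adjusted p = 0.0166). The splicing factor RBFOX1 (-0.09), the membrane protein CSMD1 (-0.21) and ASTN2, of neuronal migration (0.01), were not called.

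Single libraries and the scaling decided some of the smaller gene calls. In each of the 9 fits that left out 1 library and in all other alternatives run on the sums, 11 of the 21 calls remained, apart from a required log2 fold change beyond 1, which no sum reached (0 called). These 11 were all higher: CADM2, CTNNA3, ERBB4, EYS, FHIT, IMMP2L, LSAMP, MACROD2, NEGR1, PCDH15 and PCDH9. CTNNA2 (0.17, adjusted p = 0.128) and DLG2 (0.14, adjusted p = 0.118) were not called without NCA replicate 2. GPC5 lost its call when NCA replicate 1 (0.16, adjusted p = 0.169) was left out, and likewise NCA replicate 2 (0.17, adjusted p = 0.0971). AUTS2 was lost without NCA replicate 1 (0.16), NCA replicate 2 (0.11), ASO2 replicate 1 (0.17) or ASO2 replicate 2 (0.14), with edgeR adjusted p-values of 0.0617, 0.212, 0.0558 and 0.0687. Among the falls, PTPRD was not called without ASO2 replicate 2 (-0.25, adjusted p = 0.129) or with sums over tested regions alone (-0.29, adjusted p = 0.0719), nor OPCML without ASO2 replicate 1 (-0.21, adjusted p = 0.0778). The fall of NTM was not called with DESeq2 (-0.23, adjusted p = 0.0978), nor without NCA replicate 1, 2 or 3 (-0.25, -0.23 and -0.22) or ASO2 replicate 1 or 2 (-0.19 and -0.15), where adjusted p-values ran from 0.0657 to 0.316. Leaving out ASO2 replicate 3 turned CTNND2 into a called fall (-0.64, adjusted p = 0.00682). DAB1 was a called fall without ASO2 replicate 3 (-0.36, adjusted p = 0.0241) or NCA replicate 1 (-0.39, adjusted p = 0.0136). CSMD1 was one without ASO2 replicate 3 (-0.34, adjusted p = 0.0233), and LRP1B a called rise (0.32, adjusted p = 0.0457). Adjusted p-values in these sentences are edgeR's unless DESeq2 is named.

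**Figure D2:**
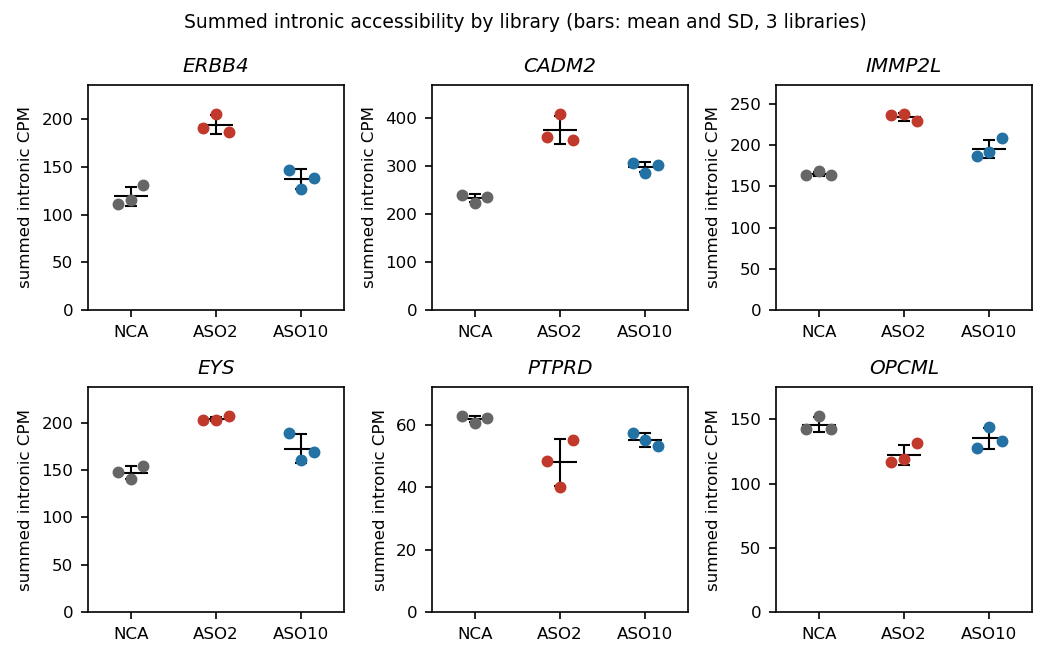
Summed intronic accessibility in CPM (y axis, from 0) of 6 members in each library of NCA, ASO2 and ASO10. Points are libraries, and the bars give the mean and SD of 3. In ERBB4, CADM2, IMMP2L and EYS the ASO2 libraries lie above all NCA and ASO10 libraries. In PTPRD and OPCML they lie below all NCA libraries.

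Region by region, 182 of the 1472 tested intronic regions (12.4%) were higher under ASO2 and 15 (1.02%) lower. Over all regions tested, 4.80% were higher and 0.807% lower. The higher regions lay in 24 members and the lower ones in 10, with a median log2 fold change of 1.18 and -0.998. The share called differed with the level of the region: of member regions of 0 to 1 log2 CPM, 0.560% were higher with a median log2 fold change of 0.018, and of those of 3 log2 CPM and over, 30.0% with a median of 0.237. The median over all tested member regions was 0.161, and 59.0% lay above 0. The number called fell from 197 to 126 without NCA replicate 1 and to 127 without ASO2 replicate 2.

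The rises of single regions with the smallest adjusted p were in MACROD2, GPC5 and ASTN2, though other called regions had larger fold changes. In MACROD2, the region chr20:15772791-15773749 had 8.69, 7.15 and 9.09 CPM in NCA, 19.9, 26.8 and 25.4 CPM under ASO2 and 15.8, 14.5 and 17.1 CPM under ASO10. Every ASO library lay above every NCA library (ASO2 log2 fold change 1.54 ± 0.17, edgeR adjusted p = 4.04e-16). In GPC5, the region chr13:92024186-92025726 had 10.9, 8.99 and 11.8 CPM in NCA and 22.4, 29.2 and 22.5 CPM under ASO2 (1.22 ± 0.16, edgeR adjusted p = 3.87e-11). ASTN2, whose sum was not called, held both a region that rose and a region that fell. The region chr9:117012564-117013932 had 11.3, 9.36 and 10.8 CPM in NCA and 22.2, 26.01 and 23.4 CPM under ASO2 (1.19 ± 0.16, edgeR adjusted p = 2.64e-10). The region chr9:117181009-117181457, in the same gene, had 12.8, 6.65 and 11.1 CPM in NCA and 2.88, 4.09 and 3.50 CPM under ASO2 (-1.53 ± 0.25, edgeR adjusted p = 2.01e-07). Another fall stood in GPC5, at chr13:91620508-91621639, with 14.4, 18.5 and 13.5 CPM in NCA and 7.14, 4.61 and 8.70 CPM under ASO2 (-1.17 ± 0.20, edgeR adjusted p = 8.72e-07). A gene whose sum rose could therefore hold regions that fell. In RBFOX1, chr16:5581833-5582773 had 11.5, 9.24 and 6.77 CPM in NCA and 6.04, 3.36 and 4.48 CPM under ASO2 (-0.998 ± 0.24, edgeR adjusted p = 0.00156), a call lost when NCA replicate 1 was left out (-0.81, adjusted p = 0.0718), and likewise ASO2 replicate 2 (-0.81, adjusted p = 0.0577).

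**Figure D3:**
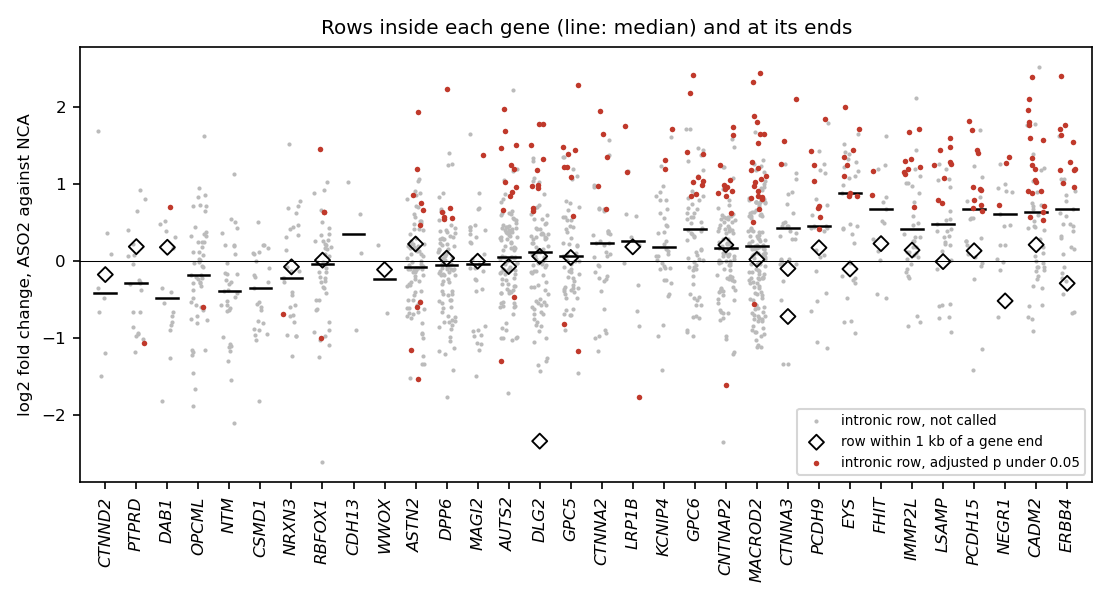
Log2 fold change for ASO2 against NCA (y axis) of every tested intronic region in each member, ordered by the fold change of the gene sum. Red points passed an adjusted p of 0.05, black lines are medians, and open diamonds are regions within 1 kb of a gene end. Of the intronic regions, 182 are called higher and 15 lower, and of the 27 diamonds 0 are called higher and 3 lower.

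At the ends of the same genes the share called higher was near that of gene ends in general. The share called lower was above it, a difference that was not tested. Of the 27 gene-end regions, 0 were higher and 3 lower under ASO2 by edgeR, where 0.569% and 0.961% of all 13532 gene-end regions tested were, and the same 3 were those with an unadjusted p under 0.05. DESeq2 and limma-voom also called none higher (0 each). The end of NEGR1 at chr1:72282308-72284649 had 27.7, 32.03 and 45.9 CPM in NCA and 21.96, 27.6 and 24.2 CPM under ASO2, with all 3 ASO2 libraries below the NCA libraries (-0.52 ± 0.13, edgeR adjusted p = 0.00241), while the NEGR1 sum rose. At the 3′ ends, a weak region of DLG2 (chr11:83455396-83455784) had 11, 34 and 22 counts in NCA and 7, 2 and 5 under ASO2 (edgeR adjusted p = 0.00972). The region chr10:65911269-65912118 at CTNNA3 had 11.7, 8.75 and 15.1 CPM in NCA and 7.82, 5.45 and 8.34 CPM under ASO2 (-0.72 ± 0.20, edgeR adjusted p = 0.0121). Each of these calls was lost when single libraries were left out: NEGR1 without NCA replicate 3 (-0.27, adjusted p = 0.390) or ASO2 replicate 1 (-0.44, adjusted p = 0.0668), DLG2 without NCA replicate 2 (-1.86, adjusted p = 0.227) or ASO2 replicate 2 (-1.96, adjusted p = 0.105), and CTNNA3 without NCA replicate 3 (-0.50, adjusted p = 0.278) or ASO2 replicate 2 (-0.55, adjusted p = 0.191). Of the 27 values 15 lay above 0, and their median was 0.0196, against -0.0529 over all gene-end regions.

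Regions over RefSeq starts, inner starts included, were taken next. Of 32 such regions tested, 0 were called in either direction by edgeR under ASO2 or ASO10 or between them, and 3 had an unadjusted p under 0.05 in each comparison. The NEGR1 gene-end region called lower under ASO2 is not among them, because NEGR1 had no start window. Over all gene-end regions the shares higher and lower were 0.569% and 0.961% under ASO2, 2.02% and 0.118% under ASO10, and 0.377% and 2.93% between the oligonucleotides, so the count of 0 was near that background. Their median log2 fold change under ASO2 was -0.0059. Of them, 22 exceeded 3 log2 CPM, with a median of 0.0323 and 0 higher, while 63 of the 201 other member regions above that level were higher, with a median of 0.275; this difference was not tested. At the ERBB4 start printed above, the region had 15.1, 15.8 and 13.8 CPM in NCA and 10.4, 13.7 and 12.1 CPM under ASO2, a value of -0.29 ± 0.17 (edgeR adjusted p = 0.404) beside 0.70 for the introns. The AUTS2 start was at 37.6 ± 2.2 CPM in NCA and 35.7 ± 2.5 CPM under ASO2, and the GPC6 start at 46.2 ± 3.7 and 46.7 ± 2.5 CPM (SD, n = 3 each). Neither differed by more than the spread between libraries. In the 15 genes that rose and had a tested start region, the value at the most accessible start was above 0 in 11 and ran from -0.29 (ERBB4) to 0.24 (CTNNA2), with a median of 0.045. These genes were chosen by their intronic sums, so their starts and introns were not compared.

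Regions called higher were found along the whole length of the genes. For the 27 members whose strand is given by the start table, 1357 tested regions were divided by their place between the 5′ and the 3′ end. In 5 equal parts from the 5′ to the 3′ end, 11.03%, 11.6%, 15.5%, 11.5% and 8.97% of regions were higher under ASO2. All parts had a positive median, from 0.076 in the part at the 5′ end to 0.208 in the middle part.

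Intronic regions of other genes were taken in the same bins of log2 CPM and weighted to the counts of the member regions. On this basis 5.15% of the other intronic regions were higher under ASO2, with a median log2 fold change of -0.0143, against 12.4% and 0.147 for the members. The difference in medians was 0.162. Taken in single libraries, the members' median less that of like-count regions had a pooled SD of 0.031 within the NCA and ASO2 groups. The share rose with the length of the gene: 1.59% in genes under 50 kb, 4.15% from 50 to 200 kb, 7.08% from 200 to 500 kb, 8.38% from 500 to 1000 kb and 14.1% in the other genes over 1000 kb, which held 1327 regions. The other genes over 1000 kb thus had a share close to that of the members, and the difference was not tested. Regions outside protein-coding genes stood at 5.22%. These shares are descriptions without a test, because the list was drawn up with results of these data known. The difference in medians was 0.0586 when only other genes over 500 kb were used. In the other genes over 1000 kb the like-count median was 0.195, above the 0.147 of the members, a difference that was not tested either.

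**Figure D4:**
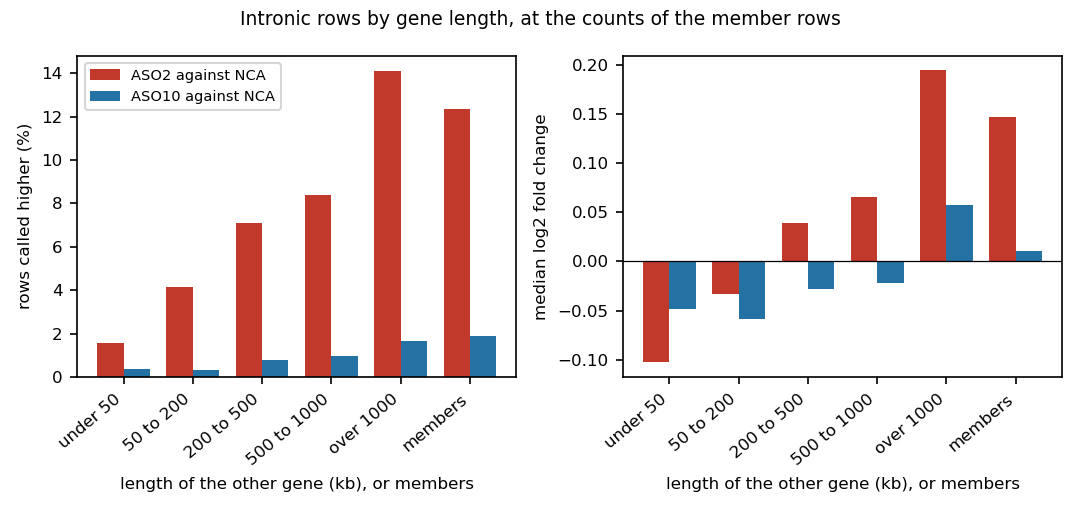
Share of intronic regions called higher (left, %) and median log2 fold change (right) for other genes by length class and for the members, weighted to the counts of the member regions, with ASO2 against NCA in red and ASO10 against NCA in blue. Bars are shares or medians over regions and have no error bar. Under ASO2 the share goes from 1.59% under 50 kb to 14.1% over 1000 kb, and the members stand at 12.4%.

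Gene sums showed the same order. Of 44 other genes over 1000 kb, 22 were higher under ASO2 and 2 lower. A list of 46 other long neuronal genes had 45 tested members, of which 19 were higher and 2 lower. Weighted to the counts of the member genes, 56.2% of the members, 57.5% of the other genes over 1000 kb and 32.6% of all other genes were called higher. Among the 32 members, length itself did not order the response: the Spearman correlation of the ASO2 log2 fold change with gene length was -0.168, with regions per Mb 0.164 and with the NCA level 0.212 (n = 32 genes measured in the same libraries, given as a description).

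The surroundings of the genes were described in the same way. Regions within 500 kb outside a member and outside any protein-coding gene were used. Around the 18 genes that rose, 390 such regions had a median log2 fold change of 0.156 under ASO2, and 10.0% were called higher, beside 0.311 and 16.2% for the 1005 intronic regions of these genes. Around the other 14 members, 308 regions had a median of -0.065, and 1.62% were called higher, beside -0.115 and 4.07% inside. Over all regions outside protein-coding genes 5.24% were called higher. The split follows the genes' own calls, and the difference between the surroundings was not tested. The median outside was above 0 for 13 of the 18 and 4 of the 14. Over the 32 genes, the log2 fold change of the gene sum and the median outside had a Spearman correlation of 0.516, a description over points that share the same 6 libraries. NEGR1 went against this order, with a median of -0.48 outside and a rise of 0.62 inside, and CADM2 rose by 0.68 with a median outside of -0.00077. OPCML and NTM, which both fell, had medians outside of -0.26 and -0.37.

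**Figure D5:**
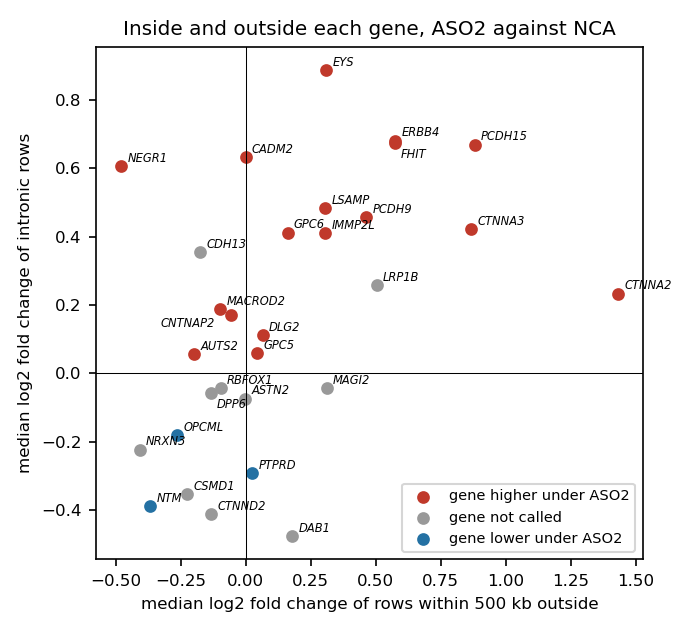
Median log2 fold change for ASO2 against NCA of the intronic regions of a member (y axis) against that of regions within 500 kb outside it and outside protein-coding genes (x axis), for the 30 members with 5 or more outside regions. Red points are genes whose sum rose, blue points genes whose sum fell, and grey points genes not called. PCDH15, ERBB4 and FHIT are high on both axes, while NEGR1 is high inside and at -0.48 outside.

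The comparison of ASO10 with NCA asked the same of the other oligonucleotide. Under ASO10, 6 of the 32 gene sums rose and 0 fell by edgeR's quasi-likelihood test, where 1.38% of all genes were higher and 0.491% lower. Weighted to the counts of the member genes, 18.8% of the members, 4.96% of all other genes and 21.5% of the other genes over 1000 kb were higher. These differences in share were not tested. NRXN3, CTNND2 and ASTN2 had negative values with an unadjusted p under 0.05, and of the positive values KCNIP4 (edgeR adjusted p = 0.0775) and ERBB4 (edgeR adjusted p = 0.0995) came nearest to the threshold. CADM2 had 305.6, 285.9 and 302.1 CPM under ASO10, all above the NCA libraries and below the ASO2 libraries, a log2 fold change of 0.36 ± 0.055 (edgeR adjusted p = 4.16e-06). The other 5 were CTNNA3 (0.25 under ASO10 and 0.46 under ASO2), IMMP2L (0.24 and 0.50), PCDH9 (0.23 and 0.46), EYS (0.23 and 0.47) and PCDH15 (0.23 and 0.55). In PCDH9 the ASO10 libraries, at 201.4, 194.8 and 178.8 CPM, overlapped the NCA library at 184.4 CPM. Cadherins and catenins gave 3 of these 6 genes. The 3 ASO10 libraries lay above all NCA libraries in 8 members and below in 6, where 8.33% and 9.34% of all genes did so. The median over the 32 sums was 0.0618, against -0.0212 over all genes.

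CADM2 was the single member called higher under ASO10 in every alternative other than the required log2 fold change beyond 1, which left 0 called. IMMP2L was lost without NCA replicate 1 (adjusted p = 0.0923) or ASO10 replicate 3 (adjusted p = 0.231). CTNNA3, PCDH9, PCDH15 and EYS were each lost in 5 or more of the 9 fits that left out 1 library, with edgeR adjusted p-values of up to 0.272, 0.384, 0.336 and 0.412. The libraries whose removal did so were NCA replicates 1 and 2 and ASO10 replicate 1 for all 4 genes, ASO2 replicate 1 for all 4, ASO10 replicate 2 for CTNNA3, PCDH9 and PCDH15, and ASO10 replicate 3 for CTNNA3, PCDH15 and EYS. The count of genes called was 1 without NCA replicate 1, and it was 2 with total counts in place of TMM factors.

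Single regions under ASO10 were called higher in 28 cases (1.90%) and lower in 2 (0.136%), against 0.875% and 0.210% of all regions. The median over tested member regions was 0.0246, and 52.1% lay above 0. At like counts 0.554% of other intronic regions and 1.65% of those in other genes over 1000 kb were higher. The count called fell from 30 to 12 without ASO10 replicate 1. The rises with the smallest adjusted p were in the MACROD2 region described under ASO2 (0.92 ± 0.17, edgeR adjusted p = 0.000155), in IMMP2L and in CADM2. The IMMP2L region chr7:111107980-111108750 had 38, 22 and 10 counts in NCA and 73, 62 and 74 under ASO10 (1.54 ± 0.28, edgeR adjusted p = 6.97e-05). The CADM2 region chr3:85846661-85848144 had 26.6, 26.4 and 22.4 CPM in NCA, 39.4, 34.6 and 46.1 CPM under ASO10 and 42.8, 41.1 and 33.2 CPM under ASO2. Both ASO groups lay above NCA there (0.67 ± 0.13 under ASO10, edgeR adjusted p = 0.00017). The GPC5 region that fell under ASO2 also had 6.53, 6.34 and 8.27 CPM under ASO10 (-1.14 ± 0.20, edgeR adjusted p = 3.95e-05). The other fall, in AUTS2 at chr7:70472856-70473324 (30, 27 and 44 counts in NCA and 12, 11 and 16 under ASO10; edgeR adjusted p = 0.0469), was called in 1 of the 9 fits that left out a library, the one without ASO2 replicate 3, and in the other 8 its edgeR adjusted p ran from 0.0520 to 0.265.

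Set directly against each other, ASO2 and ASO10 show where oligonucleotides to the same RNA differed. Summed intronic counts were higher under ASO2 in 15 of the 32 genes and lower in 0 by edgeR, where 5.99% of all genes were higher and 1.49% lower. Weighted to the counts of the member genes, 46.9% of the members, 24.9% of all other genes and 51.8% of the other genes over 1000 kb were higher. These differences in share were not tested. PTPRD, with a value of -0.20, had an unadjusted p of 0.0366, and OPCML (-0.14) also had one under 0.05. The largest difference was in ERBB4, by 0.50 ± 0.065 (edgeR adjusted p = 3.88e-09), followed by NEGR1 (0.40), LRP1B (0.40) and LSAMP (0.38). In ERBB4, NEGR1, LRP1B and LSAMP all ASO2 libraries lay above all ASO10 libraries. Both glypicans differed, GPC5 by 0.32 ± 0.059 and GPC6 by 0.22 ± 0.053. All 3 ASO2 libraries lay above the ASO10 libraries in 20 members and below in 0, against 14.7% and 8.80% of all genes tested. The median over the 32 sums was 0.196, against 0.0106 over all genes.

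LRP1B was the gene called here without a call against NCA: it had 39.3, 43.2 and 42.4 CPM in NCA, 48.6, 55.6 and 43.9 CPM under ASO2 and 38.7, 40.3 and 33.2 CPM under ASO10. The ASO2 libraries lay above those of NCA, and the ASO10 libraries overlapped NCA. Its call was lost without ASO2 replicate 2 (0.30, adjusted p = 0.121) or ASO10 replicate 3 (0.32, adjusted p = 0.0942). CTNNA2 was lost without ASO2 replicate 1 or 2 or ASO10 replicate 2 or 3 (0.22, 0.18, 0.20 and 0.18), AUTS2 and EYS without ASO10 replicate 2 (0.16 and 0.19), and PCDH9 without ASO2 replicate 2 or ASO10 replicate 3 (0.18 and 0.19). With loess offsets 8 genes were called, 7 higher and 1 lower, the lower one being OPCML (-0.24, edgeR adjusted p = 0.00371). The 8 not called then were IMMP2L (0.141), EYS (0.13), PCDH9 (0.115), CTNNA2 (0.09), GPC6 (0.073), CNTNAP2 (0.0396), MACROD2 (0.026) and AUTS2 (0.0123), with edgeR adjusted p-values from 0.0794 to 0.909.

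Of single regions, 84 (5.71%) were higher under ASO2 than under ASO10 and 4 (0.272%) lower, against 2.55% and 0.682% of all regions. At like counts the share was 2.85% in other intronic regions and 5.46% in other genes over 1000 kb. The count called fell from 88 to 43 without ASO10 replicate 2. The NEGR1 region chr1:71804211-71805142 had 4.15, 5.17 and 4.32 CPM in NCA, 11.7, 13.8 and 9.50 CPM under ASO2 and 4.01, 3.56 and 1.27 CPM under ASO10. It differed by 1.96 ± 0.26 between the oligonucleotides (edgeR adjusted p = 1.55e-10), with the ASO10 libraries all below the NCA libraries. CNTNAP2 showed the same order of group means at chr7:147078085-147078944, with 71, 134 and 113 counts under ASO2, 35, 10 and 33 under ASO10 and 47, 34 and 38 in NCA (1.88 ± 0.26, edgeR adjusted p = 9.93e-10). Its ASO10 and NCA libraries overlapped in CPM. ASO10 against NCA was not called in the NEGR1 region (edgeR adjusted p = 0.406) or the CNTNAP2 region (edgeR adjusted p = 0.366). In IMMP2L, chr7:110766558-110768177 had 19.9, 19.2 and 17.7 CPM under ASO2, 7.91, 7.23 and 7.63 CPM under ASO10 and 7.81, 6.90 and 9.65 CPM in NCA (1.32 ± 0.18, edgeR adjusted p = 2.93e-09). The regions lower under ASO2 were weaker cases. They included the ASTN2 region that fell under ASO2 (-0.93, edgeR adjusted p = 0.0149), FHIT chr3:61077984-61078568 (-1.10, edgeR adjusted p = 0.0274) and LSAMP chr3:116135353-116136084 (-0.64, edgeR adjusted p = 0.0304). In the fits that left out 1 library, ASTN2 was lost in 4 (ASO2 replicates 1 and 3, ASO10 replicates 2 and 3), LSAMP in 4 (ASO2 replicates 1 and 3, ASO10 replicates 1 and 3) and FHIT in 5 (ASO2 replicates 2 and 3, and each ASO10 replicate), with adjusted p-values of up to 0.106, 0.25 and 0.172.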

How the data were processed

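The data are ATAC-seq libraries of 1 cell line, 9 in all, with 3 each for NCA, ASO2 and ASO10. The authors deposited whole-number counts per region, with 1 set of regions for all libraries and no normalization, as the values show. The submitters' processing notes name FastQC, Bowtie2 2.2.6, SAMtools, MACS2 2.1.2 and DESeq2 1.42.0 with the builds hg38 and GRCh38. Read filters, the Tn5 shift, the merging of regions and whether reads or cut sites were counted are not given in the sources used here. How far the regions follow from peaks of 1 group is therefore unknown.

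Regions were assigned to genes by their centre, with spans and start windows from RefSeq (GRCh38.p14). Counts were tested with edgeR 4.0.16 in R 4.3.3 (filterByExpr by group, TMM factors, robust quasi-likelihood fit on all 9 libraries), once for 119417 regions and once for 11002 genes with all their intronic counts summed, using the same library sizes and factors. A region inside several genes counted for each. P-values were adjusted by Benjamini-Hochberg over all regions or genes, with a threshold of 0.05. The fit was tested on simulated data. Within each group no library was a copy of another: the chi-square over its degrees of freedom was 2.74 to 3.42 for pairs of the same group. Pairs across groups were not checked in this way.

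The members, their roles, the list of other long genes and the tests were chosen with earlier results of these data known. All 32 members are named. Single regions are named when called, up to 3 per direction with the smallest adjusted p in each comparison, and called gene-end regions up to 5. CPM use the TMM-scaled library size. Alternatives were DESeq2 1.42.0, limma-voom (limma 3.58.1), RLE factors, total counts, loess offsets (span 0.3), a block for the replicate number, fitting only the 2 groups compared, no filter or a filter of 10 counts in each library, other definitions of intronic regions, sums over tested regions only, narrower count bins, other genes over 500 kb, an added log2 fold change limit of 1 and leaving out each library. The start windows, the 5 parts of a gene, the 500 kb surroundings and leaving out regions within 1 kb of any gene end were chosen after seeing the data. Region sequences and base composition were not analysed here.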

Additional observations from a re-analysis of the deposited data

Results flagged for a closer look

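ASO2 and ASO10 are directed against the same RNA, and the tested difference between them is what brought these results here: 88 intronic regions of the members were called between the oligonucleotides, 84 of them higher under ASO2. In gene sums, 15 members were higher under ASO2 than under ASO10 by edgeR's quasi-likelihood test. The log2 differences were 0.50 in ERBB4, 0.402 in NEGR1, 0.396 in LRP1B, 0.385 in LSAMP, 0.329 in CADM2, 0.325 in GPC5 and 0.323 in PCDH15. They were 0.26 in IMMP2L, 0.241 in EYS, 0.234 in PCDH9, 0.223 in GPC6, 0.208 in MACROD2, 0.207 in CNTNAP2, 0.206 in CTNNA2 and 0.19 in AUTS2, and these 8 were not called with loess offsets (edgeR adjusted p-values from 0.0794 to 0.909). Each of the 15 had all 3 ASO2 libraries above all 3 ASO10 libraries. DPP6 had all ASO2 libraries above the NCA mean and all ASO10 libraries below it, with a difference of 0.14, and this opposition of directions was not tested as such. In the direct comparison DPP6 had an edgeR adjusted p of 0.0551. Its NCA libraries, at 491.2 to 536.2 CPM, overlapped the ASO2 libraries, at 521.3 to 542.9 CPM. With loess offsets the DPP6 values against NCA were negative under both ASO2 (-0.143) and ASO10 (-0.111).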

How the results depend on the processing

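The alternatives gave 2897 values for 138 results. Of these, 2664 left the call, or the size of a count, as reported. Among the rest, 139 lost a call, 41 gained one, 49 moved and 4 changed sign with a call before or after the change. Sign changes of values called in neither fit were not counted. Except where an alternative is stricter by construction, the cause was not tested. Depth limits the weak regions: the AUTS2 region named under ASO10, with 11 to 44 counts per library, had a standard error of 0.39 on the log2 scale.

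A required log2 fold change beyond 1 left 120, 11 and 55 called regions for ASO2 against NCA, ASO10 against NCA and ASO2 against ASO10, and 0 gene sums in each. With limma-voom 15 regions were called under ASO10. Total counts left 2 gene sums called under ASO10. Loess offsets gave 11 higher and 9 lower sums under ASO2, 6 higher and 2 lower under ASO10, and 8 called between the ASOs (7 higher and 1 lower). They changed the sign of DLG2 (-0.0138), DPP6 (-0.143), AUTS2 (-0.0421) and ASTN2 (-0.19) under ASO2, DPP6 and ASTN2 being called there. Sums called in neither fit also changed sign: MAGI2 (0.062 to -0.0845) and WWOX (-0.024 to 0.0198) under ASO2, and CTNNA2 (0.013 to -0.016) under ASO10. Between the ASOs these were DLG2 (0.1165 to -0.0479), DPP6 (0.1397 to -0.0319), ASTN2 (0.1209 to -0.0544), KCNIP4 (0.063 to -0.0576), NRXN3 (0.075 to -0.00506) and RBFOX1 (0.013 to -0.123). Of gene-end regions, 1 was called under ASO10 with DESeq2, limma-voom, at least 10 counts in every library or only the groups compared, and 1 between the ASOs with the last 2 of these settings.

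The difference between the members' median and that of like-count regions was 0.112 for ASO2 and 0.013 for ASO10 with DESeq2. Without a filter it was 0.111, 0.0132 and 0.0908 in the order of comparisons above. Between the ASOs it was 0.0896 with at least 10 counts in every library. With other genes over 500 kb alone it was 0.0586 for ASO2 and 0.0379 between the ASOs.

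In the 9 fits that each left out 1 library, the number of called regions was between 126 and 192 for ASO2, between 12 and 30 for ASO10, and between 43 and 91 in the direct comparison. Called gene sums ran from 16 to 25, 1 to 7 and 12 to 18, called gene-end regions from 1 to 3, 0 to 1 and 0 to 1, and the difference in medians from 0.12 to 0.177, 0.0266 to 0.0615 and 0.107 to 0.127.

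The labels number the replicates without saying that a number marks a shared culture or day. Deviations of same-numbered libraries correlated at -0.036 to 0.013, so the numbers were not taken as pairing. With the replicate number as a block, 186, 24 and 85 regions and 21, 2 and 15 gene sums were called, and the gene-end counts stayed at 3, 0 and 0. Leaving out regions within 1 kb of any protein-coding gene end, chosen after seeing the data, moved no count of calls by over 1.5 times.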
